A study of Mus musculus with 6 samples.

Results

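Messenger RNA of 8 transcription factors of the STAT and IRF families was followed in medullary thymic epithelial cells (mTEC), the thymic stromal cells that show self-antigens to developing T cells. The genes were Stat2, Stat3, Irf1, Irf2, Irf5, Irf7, Irf8 and Irf9. They were taken by symbol from a count table of 43432 gene IDs, in which 16 genes belong to these families, and all 8 passed the filter on low counts. RNA sequencing covered 3 libraries of Copa+/+ mice (WT) and 3 of CopaE241K/+ mice (MUT), all C57BL/6 and 4 weeks old. Copa encodes a subunit of the COPI vesicle coat, and MUT mice carry 1 allele with the E241K change. The series asked how mTEC gene expression differs between these genotypes, and its title points to STING and type I interferons. The labels do not say whether a library is 1 animal or a pool, so p-values measure only the spread between these libraries.

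STAT and IRF proteins carry cytokine and pathogen signals to the nucleus. Type I interferon activates STAT2, which joins IRF9 in the complex ISGF3, and this complex binds the interferon-stimulated response element (ISRE). STAT dimers, among them those of STAT3, bind the gamma-activated site (GAS). IRF1 activates and IRF2 mostly represses overlapping sets of ISRE genes, IRF5 and IRF7 drive interferon and cytokine genes downstream of nucleic acid sensors, and IRF8 is best known from dendritic cells, macrophages and B cells. In the thymic medulla, interferons are made even without infection.

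None of the 8 genes passed the test between the genotypes. Stat2, Irf5 and Irf7 varied over 6-fold among the WT libraries, and the fitted values of Stat2, Stat3, Irf7 and Irf9 changed sign when 1 library was left out. Irf1 had a fitted value 1.61-fold higher in MUT and Irf2 one of 0.728-fold. The ratio of Irf1 to Irf2 within a library was higher in all 3 MUT libraries than in any WT library. A two-sided exact permutation test gave p = 0.1 for this ratio, the smallest p the design allows. The ratio was chosen with earlier results of these data known. The median log2 fold change was 1.08 for 26 listed ISRE targets and 0.16 for the 8 factors. None of the 26 targets passed the test, and the difference between targets and factors was not tested. The target list was written with earlier results of these libraries known.

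Promoter sequence is shown for the 4 members whose upstream region held a match to an interferon motif, since STAT and IRF proteins are known to bind such motifs. RefSeq promoter windows on GRCm38.p6 matched all 8 members, with 11 windows in all because Irf1, Irf8 and Irf9 had more than 1 start. The 250 bases upstream of each start were searched on both strands for an ISRE, written as GAAA, any 2 bases and GAAA, and for a GAS, written as TTC, any 3 bases and GAA. Capitals mark the matches, and each stretch runs 5′ to 3′ along the gene's own strand, here the plus strand.
Irf1, chr11:53769879-53769977: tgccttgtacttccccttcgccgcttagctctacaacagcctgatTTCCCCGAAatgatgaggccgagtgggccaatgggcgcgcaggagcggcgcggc
Irf8, chr8:120736142-120736258: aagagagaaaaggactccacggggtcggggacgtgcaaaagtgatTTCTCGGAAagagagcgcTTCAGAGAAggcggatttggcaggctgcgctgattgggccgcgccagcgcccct
Irf2, chr8:46739495-46739574: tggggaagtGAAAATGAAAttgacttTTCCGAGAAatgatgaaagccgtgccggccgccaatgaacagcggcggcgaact
Stat2, chr10:128270248-128270330: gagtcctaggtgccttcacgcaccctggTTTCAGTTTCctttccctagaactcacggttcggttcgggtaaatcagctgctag

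The Irf1 match is a GAS 90 to 82 bases upstream of the start. Irf8 held a pair of GAS matches, at 171 to 163 and 153 to 145 bases upstream. Irf2 held an ISRE match at 241 to 232 bases and a GAS match at 224 to 216 bases upstream, and Stat2 an ISRE match on the opposite strand at 222 to 213 bases. The RefSeq start of Stat2, at 128270498, lies before the GENCODE M21 gene start of 128270559, so this distance holds for the RefSeq start. Across all 32851 RefSeq windows, 2.98% held the ISRE letters and 7.02% the GAS letters upstream of the start. The searched windows of Stat3, Irf5, Irf7 and Irf9 held neither set of letters. A match is a description of sequence and was not tied to binding by any data here.

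The libraries held 19934513 to 23366238 counts, and mitochondrially encoded genes took 9.14% to 21.3% of them. Genes with any count numbered 17174, 19558 and 21755 in WT libraries 1, 2 and 3 and 19329, 20188 and 24774 in MUT libraries 1, 2 and 3. WT library 1 thus had the fewest detected genes. Whether this bears on its extreme values was not tested. All 15 listed thymic epithelial genes were counted in every library, with the antigen regulator Aire at 928.7 to 1563 CPM and Epcam at 418 to 751 CPM. That list includes the cortical epithelial genes Psmb11, at 4.71 to 30.2 CPM, and Prss16, at 9.51 to 51.8 CPM. CPM are counts brought to a common library size, here after scaling by TMM, the trimmed mean of M-values. WT library 1 held the highest value of Stat2 and Irf7 and the lowest of Stat3, Irf5 and Irf8, and WT library 3 the lowest of Stat2, Irf1, Irf7 and Irf9.

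Per length, Stat3 was the most abundant member. On the TPM scale, which divides counts by exonic length and brings each library to a common total, WT libraries averaged 168.5 ± 67.03 and MUT libraries 205 ± 116. Means are given with the SD of 3 libraries throughout. Over all 6 libraries the order of mean TPM was Stat3 (187), Irf7 (86.1), Stat2 (76.1), Irf1 (72.8), Irf8 (71.5), Irf5 (50.7), Irf9 (36.7) and Irf2 (30.9). The ranges of every pair of neighbours in that order overlapped. Stat3 was above Irf7 in 5 of 6 libraries, while Irf7 was above Stat2 in 3 and Stat2 above Irf1 in 1. Irf1 was above Irf8 in 4, and Irf8 above Irf5, Irf5 above Irf9 and Irf9 above Irf2 in 5 each. The order from Irf7 to Irf8 therefore does not separate from the spread between libraries.

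**Figure D1:**
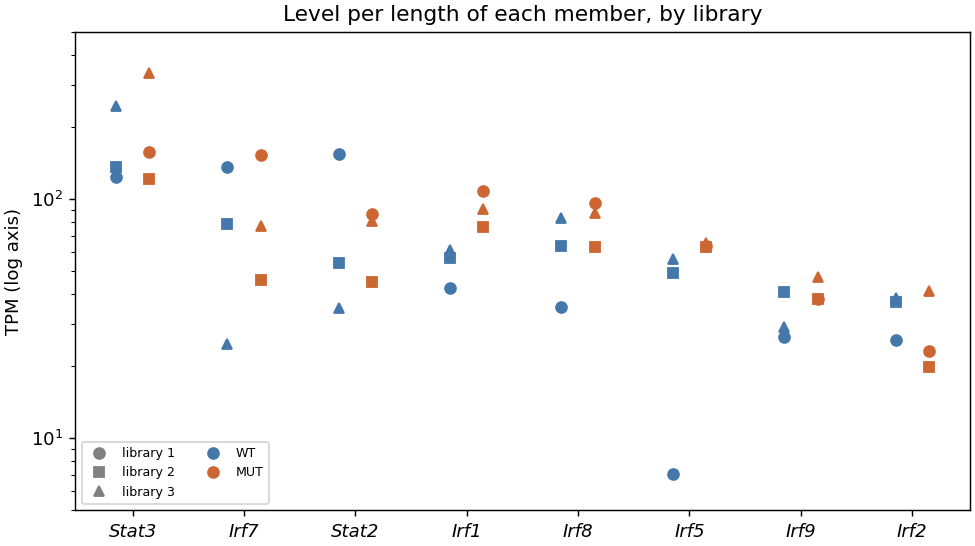
Level per length (TPM, log axis) of the 8 members in each library, WT in blue and MUT in orange, with a symbol for each library number and genes ordered by mean TPM. Stat3 has the highest mean at 187 TPM and Irf2 the lowest at 30.9 TPM, and WT library 1 lies far below the other libraries for Irf5, at 7.07 TPM.

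Among the factors of ISGF3, Stat2 (ENSMUSG00000040033, chromosome 10, 128270559 to 128292849) measured 415.5, 145.7 and 65.3 CPM in WT libraries 1, 2 and 3 and 199.9, 127.1 and 128.8 CPM in MUT libraries 1, 2 and 3. The WT libraries lay on both sides of all MUT libraries, and the highest WT value was 6.37-fold the lowest. The log2 fold change, MUT minus WT, was -0.46 (SE 0.56, 95% interval -1.68 to 0.76). Without WT library 1 it was 0.53, and without WT library 3 it was -0.89.

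Irf9, whose product gives ISGF3 its contact with the ISRE (ENSMUSG00000002325, chromosome 14, 55603571 to 55610030), measured 64.5, 100.1 and 49.0 CPM in WT and 80.5, 97.7 and 68.2 CPM in MUT. The genotypes overlapped, with WT library 2 the highest of all and WT library 3 the lowest. Its fitted log2 fold change was 0.21 (SE 0.45, 95% interval -0.78 to 1.19), and -0.0037 without WT library 3. The interval includes 2-fold changes upward, so a moderate difference in Irf9 was not detectable with this spread.

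The balance of both ISGF3 genes was also read within libraries, as the log2 ratio of Irf9 counts to Stat2 counts, which needs no library size. WT libraries 1, 2 and 3 gave -2.69, -0.54 and -0.41, and MUT libraries 1, 2 and 3 gave -1.31, -0.38 and -0.92. WT library 1, where Stat2 was highest, lay far below the rest. The difference was 0.35 (two-sided exact permutation test, p = 0.8; the smallest p that 3 against 3 libraries allow is 0.1), and -0.39 without WT library 1.

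Irf7, an amplifier of type I interferon production that is itself interferon-induced in many cells (ENSMUSG00000025498, chromosome 7, 141262706 to 141266481), measured 232.7, 135.3 and 29.1 CPM in WT and 226, 82.3 and 78.4 CPM in MUT. Library 1 was the highest in each genotype, and the WT range enclosed the whole MUT range. The log2 fold change was -0.04 (SE 0.65, 95% interval -1.46 to 1.38). Its sign depended on the library and the scale: the value was 0.66 without WT library 1 and -0.72 without MUT library 1. On the TPM scale the log2 ratio of the means was 0.21, beside a median of 0.12 over all 17090 tested genes with a length on that scale.

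**Figure D2:**
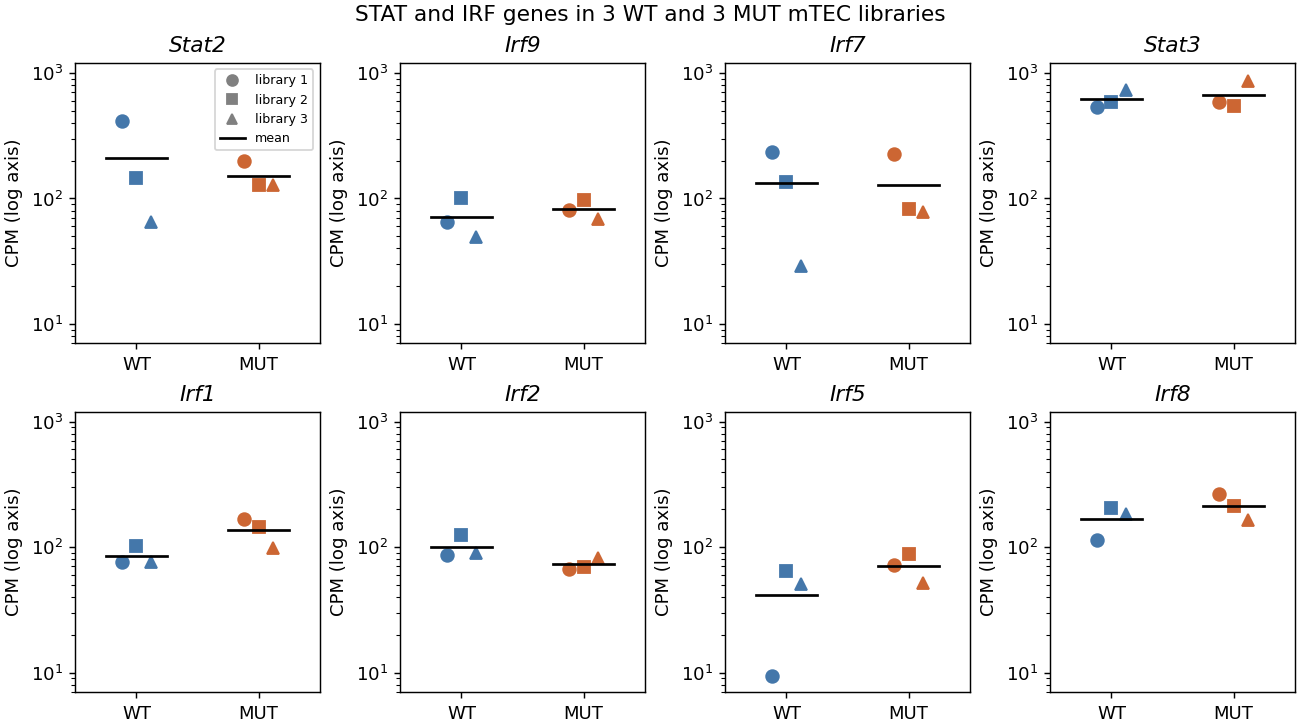
CPM (log axis) of each member in the 3 WT libraries (blue) and 3 MUT libraries (orange), with a symbol for each library number and a bar at the mean. Irf2 is the gene whose genotypes do not overlap, Stat2 and Irf7 spread widely in WT, and Irf5 has its lowest value, 9.31 CPM, in WT library 1.

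Irf1, an ISRE activator known to be induced by interferons (ENSMUSG00000018899, chromosome 11, 53770014 to 53778374), measured 76.5, 102.6 and 76.1 CPM in WT and 168.4, 144.2 and 97.6 CPM in MUT. MUT libraries 1 and 2 were above every WT library, and MUT library 3 lay just under WT library 2. The means were 85.1 ± 15.2 and 136.7 ± 36.0 CPM. The log2 fold change was 0.68 (SE 0.39, 95% interval -0.17 to 1.54) with an unadjusted p of 0.108, and edgeR's quasi-likelihood test gave it an adjusted p of 0.999875. It stayed between 0.51 and 0.87 when any 1 library was left out.

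Irf2, the antagonist at many of the same sites (ENSMUSG00000031627, chromosome 8, 46739732 to 46847458), measured 86.1, 124 and 89.7 CPM in WT and 67.0, 69.4 and 81.9 CPM in MUT. All 3 MUT libraries were below all 3 WT libraries. The means were 99.9 ± 20.96 and 72.7 ± 8.004 CPM, and the log2 fold change was -0.46 (SE 0.41, 95% interval -1.34 to 0.43), or -0.29 without WT library 2. Irf2 was the 1 member of 8 whose genotypes did not overlap; among all 17172 genes tested, 9.35% did not overlap, 5.39% with MUT higher and 3.96% with MUT lower.

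Separation between the genotypes depended on the scale for both genes. On the TPM scale Irf1 measured 42.5, 56.8 and 61.1 in WT and 108.7, 76.4 and 91.3 in MUT, without overlap, and Irf2 overlapped, because MUT library 3 held 41.2 TPM. Non-overlapping genes made up 7.81% of the 17090 genes compared on that scale, 5.72% with MUT higher and 2.09% with MUT lower. Irf5 was the other member without overlap there, with 7.07 to 55.9 TPM in WT and 63.4 to 65.6 TPM in MUT. On the CPM scale it overlapped, because MUT library 3 held 51.2 CPM and WT library 2 held 64.7 CPM. Over the same 17090 genes the median log2 ratio of means, MUT over WT, was 0.12 on the TPM scale and -0.01 on the CPM scale.

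The ratio of Irf1 counts to Irf2 counts within a library does not depend on the scale. It was 0.889, 0.827 and 0.848 in WT libraries 1, 2 and 3 and 2.51, 2.08 and 1.19 in MUT libraries 1, 2 and 3. The WT libraries were close together, and each MUT library was above all of them. On the log2 scale the means were -0.23 ± 0.05 in WT and 0.88 ± 0.56 in MUT, a difference of 1.11 (two-sided exact permutation test, p = 0.1, the smallest p this design allows). The difference ran from 0.88 without MUT library 1 to 1.42 without MUT library 3. Counts were not divided by length here, so a ratio of 1 does not mean equal numbers of transcripts. Both ratios, this one and that of Irf9 to Stat2, were chosen with earlier results of these data known.

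**Figure D3:**
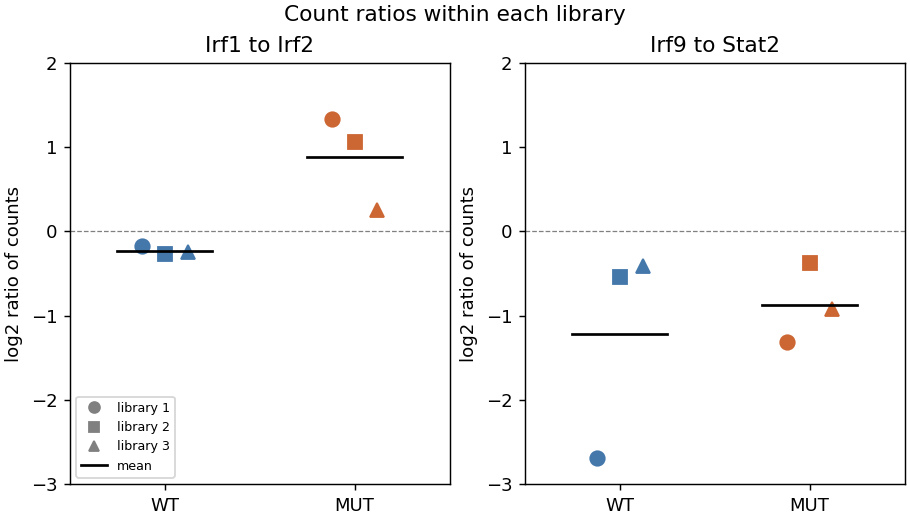
Log2 ratio of counts of Irf1 to Irf2 (left) and Irf9 to Stat2 (right) in each WT (blue) and MUT (orange) library, with a symbol for each library number, a bar at the mean and a dashed line at equal counts. The Irf1 to Irf2 ratios lie between -0.27 and -0.17 in WT and between 0.25 and 1.33 in MUT, whereas the Irf9 to Stat2 ratios overlap.

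Irf5, which acts downstream of Toll-like receptors in myeloid cells (ENSMUSG00000029771, chromosome 6, 29526625 to 29541871), measured 9.31, 64.7 and 50.9 CPM in WT and 71.8, 87.4 and 51.2 CPM in MUT. WT library 1 held 162 counts where the other libraries held 1156 to 1824, and MUT library 3 was close to WT library 3. Its fitted log2 fold change was 0.75 (SE 0.66, 95% interval -0.68 to 2.19), and 0.28 without WT library 1 or 1.21 without WT library 2. Exons of Tnpo3 on the opposite strand cover 411 bases, or 14.1%, of the 2905 exonic bases of Irf5. The strand setting of the counting is not given in the sources used here, so reads there cannot be assigned with certainty.

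Irf8, a regulator of dendritic cell and macrophage identity (ENSMUSG00000041515, chromosome 8, 120736358 to 120756694), measured 113.3, 203.6 and 183.8 CPM in WT and 264.7, 211.7 and 165.5 CPM in MUT. MUT libraries 1 and 2 were the highest, and MUT library 3 was below WT libraries 2 and 3. The log2 fold change was 0.36 (SE 0.36, 95% interval -0.44 to 1.15), and 0.14 without WT library 1.

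Markers of leukocytes were looked at beside Irf5 and Irf8, since these genes are well known from such cells. The summed level of 17 myeloid and dendritic cell markers was 1606, 2771 and 1874 CPM in WT and 1463, 2902 and 1832 CPM in MUT. Laptm5 and Lyz2 made up the largest shares of these sums. MUT library 1 had the lowest sum and the highest Irf8 value, but the mean log2 CPM of the same markers, which weights them equally, was lowest in WT library 1, where Irf8 was lowest too (3.96, 5.51 and 4.57 in WT and 4.16, 5.57 and 4.27 in MUT). Among dendritic cell markers, Batf3 was at 0.0575, 3.30 and 2.25 CPM in WT and 16.2, 10.1 and 2.75 CPM in MUT, also lowest in WT library 1 and highest in MUT library 1. Zbtb46 ranged from 23.8 to 73.7 CPM, Xcr1 from 2.97 to 39.2 CPM, Flt3 from 0.287 to 26.98 CPM and Itgax from 0.330 to 5.75 CPM. Zbtb46 and Itgax went the other way from Batf3, highest in WT library 1 and lowest in MUT library 1, and Xcr1 was lowest in MUT library 1 too. Clec9a had 0 counts in WT library 1 and 3 to 188 in the others. The 8 B cell markers summed to 389.8 to 654.9 CPM in WT and 291.6 to 1150 CPM in MUT, and the 7 markers chosen for plasmacytoid dendritic cells to 823.6 to 1493 and 611.7 to 1474 CPM, most of it from Spib. Of those 7, the defining marker Siglech was at 0 in MUT library 1 and at most 13.2 CPM elsewhere. The 15 thymocyte markers summed to 357 to 814.5 CPM in WT and 217 to 1143 CPM in MUT, and the 10 stromal and endothelial markers to 1827 to 3084 and 1290 to 1785 CPM. Most of that last sum was the pericyte gene Rgs5, and the other 9 markers summed to 110.9 to 201 CPM in WT and 99.7 to 194 CPM in MUT, with overlap. No marker of any list was at 0 in every library. Irf5 was highest in MUT library 2, at 87.4 CPM, where the myeloid, B cell and thymocyte sums were also highest. Ptprc was at 384.4 CPM there and at 24.3 to 104.2 CPM elsewhere. Irf5 was lowest in WT library 1, where the mean log2 CPM of the myeloid markers was lowest. MUT library 1 went the other way, with the lowest myeloid sum but 71.8 CPM of Irf5, above every WT library. The part of the cells marked by these lists in the values of Irf5 and Irf8 was not tested, and in bulk samples fewer cells of a type and less RNA per cell cannot be told apart.

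Stat3, the factor of interleukin-6 family and other epithelial cytokine signals (ENSMUSG00000004040, chromosome 11, 100885098 to 100939540), measured 534.5, 589 and 732.6 CPM in WT and 583, 549 and 865 CPM in MUT. Library 3 was the highest in each genotype, and the genotypes overlapped. The fitted value was a log2 fold change of 0.11 (SE 0.30, 95% interval -0.54 to 0.75), and -0.13 without MUT library 3. Stat3 had the narrowest interval of the 8 members, and it excludes a 2-fold difference in either direction.

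In the fit across all genes, edgeR's quasi-likelihood test called 0 of the 8 members at an adjusted p of 0.05, and 0% of 17172 tested genes. Also, 0 members had an unadjusted p under 0.05, where 3.48% of genes did. DESeq2 and limma-voom called 0 members too, against 0.629% and 0% of the genes they tested. Of the members, 5 had a fitted value above 0 and 3 below, and 49.4% of all genes were above 0. The spread among libraries differed widely between members. The SD of log2 CPM among WT libraries was 1.34 for Stat2, 1.52 for Irf5 and 1.55 for Irf7. It was 0.23 to 0.52 for the other 5 members, under the median of 0.76 for genes of at least 10 CPM. In MUT the SD was 0.15 to 0.86, with Irf7 the most variable.

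**Figure D4:**
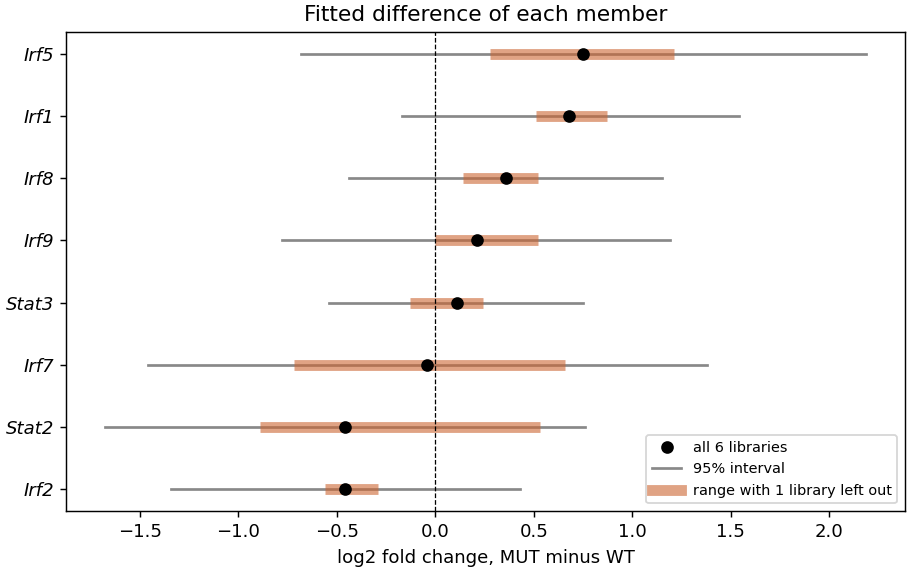
Fitted log2 fold change of each member, MUT minus WT (points), with its 95% interval (grey lines) and the range of values when each of the 6 libraries is left out (orange bars). Every interval includes 0, and the leave-out ranges of Stat2, Irf7, Stat3 and Irf9 cross 0 while those of Irf5, Irf1, Irf8 and Irf2 do not.

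Of 6 other STAT and IRF genes of the table, 0 passed the test and 3 had fitted values above 0; their log2 fold changes had a median of 0.07. Stat5a, a factor of cytokine receptors that lies next to Stat3, measured 118.5, 148 and 129 CPM in WT and 149.4, 233 and 205.3 CPM in MUT, a fitted log2 difference of 0.57 (SE 0.35). It was the 1 gene of these 6 whose genotypes did not overlap, beside 9.35% of all genes tested, and its 95% interval was -0.19 to 1.33. Its partner Stat5b pointed the other way: WT averaged 55.8 ± 26.2 CPM and MUT 38.8 ± 6.75 CPM (-0.52, SE 0.57, but -0.23 without WT library 3).

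Irf3, which STING signalling activates by phosphorylation, measured 135.2, 19.0 and 28.6 CPM in WT and 50, 86.7 and 24.5 CPM in MUT. WT library 1 was again the highest, as for Stat2 and Irf7, and the log2 fold change of -0.18 (SE 0.75) was 1.17 without it. Stat6, the factor of interleukin-4 and interleukin-13 signals, had a log2 fold change of 0.30 (SE 0.37), and 0.06 without MUT library 2. Irf4, a factor well known from lymphoid cells, had -0.10 (SE 0.37). Its mean over all libraries was 117.8 TPM, above every member except Stat3. Stat4 had 0.24 (SE 1.06) and a mean of 7.06 TPM, the lowest of the members and these other genes. The signs of both changed with 1 library left out: Irf4 was 0.09 without WT library 2 and without MUT library 1, and Stat4 was -0.01 without WT library 2.

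Target genes were read beside the factors. Of 26 listed ISRE targets, 23 had a fitted value above 0, the median log2 fold change was 1.08 and 13 had every MUT library above every WT library, as did 5.39% of all genes, against medians of 0.16 for the 8 members and -0.01 for all genes. None of the 26 passed edgeR's test over all genes. The antiviral gene Rsad2 measured 22.9, 41.9 and 10.5 CPM in WT and 122.3, 207.7 and 224.4 CPM in MUT, a fitted log2 difference of 2.88 (SE 0.55). Oasl2, an oligoadenylate synthetase relative, measured 625, 838.6 and 716 CPM in WT and 1795, 1767 and 1565 CPM in MUT (1.23, SE 0.26). The difference between the targets and the factors was not tested. This list was written with earlier results of these libraries known and is not independent evidence of its direction.

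Of 19 listed IRF1 and GAS targets, 14 were above 0, as were 49.4% of all genes, and the median was 0.41. All MUT libraries were above all WT libraries for 3 of them, as for 5.39% of all genes, and 0 passed the test. This list too was chosen with earlier results of these data known. Gbp7, a guanylate-binding protein gene, measured 22.3, 10.2 and 34.4 CPM in WT and 57.7, 85.6 and 45.5 CPM in MUT (fitted fold 2.82, interval on the log2 scale 0.14 to 2.85). The T cell attractant gene Cxcl9 measured 706 ± 193 and 1233 ± 486 CPM (0.80, SE 0.34), and its value was 0.43 without MUT library 2. Of 19 tested STAT3 targets, 10 were above 0, with a median of 0.10 and 0 passing. Batf, an AP-1 family factor gene, had 6.15, 1.46 and 3.04 CPM in WT and 40.9, 34.4 and 9.94 CPM in MUT (3.00, SE 1.02), and Reg3g, an antimicrobial lectin gene, had 1380 ± 500.2 and 831.8 ± 401 CPM (-0.73, SE 0.38, but -0.40 without WT library 2).

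**Figure D5:**
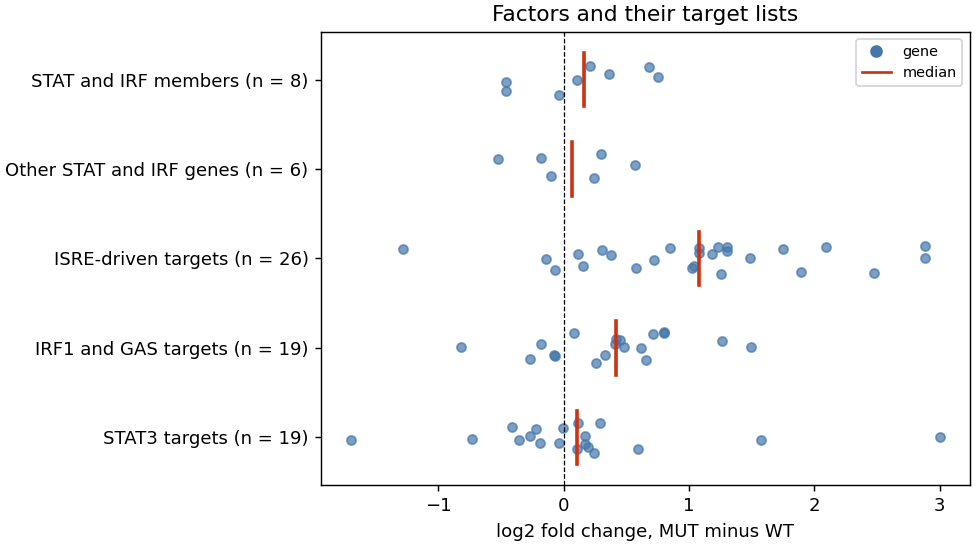
Fitted log2 fold change, MUT minus WT, of each gene (points) in the 8 members, 6 other STAT and IRF genes, and the listed ISRE, IRF1 and GAS, and STAT3 targets, with a line at each median. Medians are 0.16, 0.07, 1.08, 0.41 and 0.10; vertical scatter within a row has no meaning.

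Upstream and feedback genes gave 0 calls. Of 14 receptor and kinase genes, 7 were above 0 (median 0.01). Jak2, a kinase of interferon-gamma and interleukin receptors, averaged 114.7 ± 43.5 CPM over WT and 186.7 ± 37.1 CPM over MUT libraries (0.70, SE 0.40, but 0.44 without WT library 1). Il22ra1, the interleukin-22 receptor gene, measured 13.4 ± 15.8 and 0.598 ± 0.837 CPM (-4.46, SE 2.27, but -2.95 without WT library 3 and -6.74 without MUT library 3), with 0 in 1 library of each genotype.

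Of 15 tested genes that activate IRF proteins, 8 were above 0 (median 0.14). The kinase Tbk1, which phosphorylates IRF3 and IRF7, measured 76.3 ± 31.9 and 39.9 ± 13.6 CPM (-0.93, SE 0.53), and Tmem173, the gene of STING, 235.9 ± 29.1 and 161 ± 64.5 CPM (-0.55, SE 0.38, but -0.25 without MUT library 1). Of 16 negative regulators, 8 were above 0 (median -0.08). The interferon-induced brake Usp18, which binds STAT2 at the receptor, is also a gene of the ISRE list. Usp18 measured 71.1, 104.6 and 75.2 CPM in WT and 251.5, 190.9 and 157 CPM in MUT, a fitted fold of 2.39 (SE of its log2 value 0.37). Socs1, Socs3, Il6st and Osmr are shared between lists as well, so the lists are not separate evidence. Pias4, a SUMO ligase gene, measured 37.7 ± 25.6 and 11.3 ± 2.54 CPM (-1.73, SE 0.81).

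The members also differed from each other in their pattern over the 6 libraries. Likeness was measured as the root mean square difference of log2 CPM after centring each gene on its mean. This measure is not scaled by spread, so genes that vary little lie close to each other. Irf1 and Irf8 were the closest pair, at 0.26, followed by Irf1 and Irf9 at 0.32. Irf1 and Irf2 were 0.64 apart. Stat2 was closest to Irf7, at 0.45, and both were far from Irf5, at 1.72 and 1.73. Over all 10430 other genes of at least 10 CPM, the median difference was 0.78 to 1.30 depending on the member.

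For each member except Stat3, the 2 genes with the most similar pattern are named as a description over 6 libraries. They were sought among the tested genes with a mean of at least 10 CPM. Irf7 was nearest to Mylip, a ubiquitin ligase gene (0.130), and Rtp4, an interferon-induced gene of the ISRE list (0.293). Stat2 was nearest to Tm9sf1 (0.110) and Agrn (0.149), and Irf9 to Plaa (0.1) and Rnf6 (0.103). Irf1 was nearest to Atp6ap2 (0.119) and Ndufs7 (0.123), and Irf2 to Akr1a1 (0.1) and Zcchc9 (0.103). For Irf5 they were Tgfbr3 (0.118) and Prmt3 (0.175), for Irf8 Pcp4l1 (0.085) and Pls1 (0.101), and for Stat3 Stk35 (0.077) is given.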

How the data were processed

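The authors deposited raw read counts per Ensembl gene, with 1 column per library. The submitters' processing notes name the build GRCm38, DESeq2 1.26.0 and STAR 2.4.2a without their roles, and per the labels' protocols cDNA was made by Nugen Ovation and libraries by Nextera XT. Counter, annotation release and strandedness: not given in the sources used here. All 6 sample columns were used, and 42462 of 43432 IDs had a symbol. Groups and numbers came from the sample titles.

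Genotypes were compared with edgeR 4.0.16 (R 4.3.3) over 17172 genes: filterByExpr, TMM, the quasi-likelihood F-test with robust fits, and a threshold of 0.05 after Benjamini-Hochberg adjustment. SE is the log2 fold change divided by the square root of F. TPM used exonic lengths from GENCODE M21. Count ratios were compared by exact permutation (scipy 1.17.1). Alternatives were the replicate block, other normalizations and filters, DESeq2 1.42.0, limma-voom 3.58.1 and each library left out. The TPM comparison was chosen after seeing the data. On simulated data for this comparison, with 17172 genes, edgeR recovered 8.96% of genes changed 4-fold and 45.3% of those changed 16-fold.

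Named were the 8 members, 6 other STAT and IRF genes, the 2 genes of smallest p in each of 6 pathway lists and the 2 nearest in pattern to each member. Members, lists, ratios and motifs were chosen with earlier results of these data known. Prior count for log2 CPM was 2. The list symbol Mb21d1 had no match, and Fgl1 was below the filter. Results for certain genes are not reported here.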

Additional observations from a re-analysis of the deposited data

How the results depend on the processing

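The count of 0 called members held in edgeR under the replicate block, upper-quartile normalization, DESeq2 size factors, no filter, a stricter filter of 50 counts in 3 libraries and each library left out, and in DESeq2 and limma-voom. Over all genes, 0 calls became 1 with the replicate block (higher in MUT), 73 without a filter (31 higher, 42 lower) and 116 with DESeq2 (78 higher, 38 lower), and the cause was not tested. Over all genes the median log2 difference went from -0.01 to 0.16 without a filter and 0.15 with DESeq2. Rsad2 was called in 2 settings and Oasl2 in 1.

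Irf7 turned positive with the replicate block (0.21), upper-quartile normalization (0.09), limma-voom (0.27) and TPM means (0.21). Irf3 did so with the replicate block (0.12) and limma-voom (0.20). With 1 library left out, signs turned within ranges of -0.72 to 0.66 for Irf7, -0.89 to 0.53 for Stat2, -0.13 to 0.24 for Stat3, -0.0037 to 0.52 for Irf9, -0.72 to 1.17 for Irf3, -0.44 to 0.09 for Irf4 and -0.01 to 0.86 for Stat4, and -0.39 to 0.75 for the ratio of Irf9 to Stat2. The cause was not tested. Irf1, Irf2, Irf5 and Irf8 kept their sign in all settings run.

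The source names of same-numbered WT and MUT libraries share an ending, but the labels do not say what it or the number stands for. Deviations of same-numbered libraries from their group means correlated at 0.1, 0.059 and 0.127, and each correlated best with its own number, a hint from the data and not from the design. With the replicate block the log2 fold change of Stat2 went from -0.46 to -0.10 and that of Irf5 from 0.75 to 1.07, and no member was called. With the replicate block as sign flips of the 3 differences, the exact p was 0.25 for the ratio of Irf1 to Irf2, the smallest possible, and 0.75 for Irf9 to Stat2.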

Other observations

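Within the ISRE list, the genes did not all follow the genotype, and some shared the high WT library 1 of Stat2 and Irf7. These were chosen after their values were seen. Oas2, an oligoadenylate synthetase gene, measured 470.9, 50.3 and 17.9 CPM in WT libraries 1, 2 and 3 and 148.7, 19.3 and 53.9 CPM in MUT. Xaf1, a gene of an apoptosis regulator, measured 117, 26.4 and 34.8 CPM in WT and 71.1, 68.3 and 53.2 CPM in MUT. Rtp4 measured 80.95, 64.5 and 12.3 CPM in WT and 64.3, 41.3 and 37.2 CPM in MUT. WT library 1 was the highest of all 6 libraries for each of these 3 genes. The same held for Ifi44, at 93.6 CPM there, and for Ifit3b, at 24.6 CPM there and 21.3 CPM in MUT library 2. Every other gene of the list was highest in another library. How often WT library 1 is the highest over all genes was not computed, so this is a description only. By contrast, Ifit2 was lowest in WT library 1, at 2.18 CPM beside 9.09 and 15.7 CPM in the other WT libraries and 52.4, 93.3 and 53.3 CPM in MUT.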
